A study of Mus musculus with 10 samples.

Results

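The SLC25 family and the uncoupling proteins are the membrane carriers that move metabolites, nucleotides and cofactors across the inner mitochondrial membrane, and they were followed here in mouse intestinal organoids that lack IκBα. Members were taken by symbol, as every gene on the array named Slc25a with a number, and Ucp1, Ucp2 and Ucp3. 48 genes of the 19505 with a symbol met this, each with 1 probe set, so that taking the probe set with the highest mean left out nothing. Ucp2 is unnamed here and was not analysed. Intestinal organoids are cultured balls of epithelium that keep several of its cell types. Of the 10 arrays, 5 hold organoids labelled KO for IκBα and 5 hold organoids labelled WT, and all 10 sources carry the mark P6 in the labels, which was not interpreted. How the deletion was made, the strain, the age of the animals, and whether each array had its own animal or culture are not stated in the labels. The p-values therefore reflect only the scatter among these 10 samples, and that scatter may be technical. IκBα, encoded by Nfkbia, holds NF-kB transcription factors in the cytosol, and the title of the series concerns a fetal state of intestinal stem cells without it.

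As background, mitochondrial carriers share one fold of repeated membrane-spanning segments and most work as exchangers, letting 1 substrate in as another leaves. They decide what the matrix receives: ADP and phosphate for ATP synthesis, acylcarnitines for fatty acid oxidation, ornithine for the urea cycle and for arginine metabolism, iron for heme, and coenzyme A, folate and NAD for enzymes. Enterocytes of the small intestine use several of these routes, since they burn glutamine and fatty acids and make citrulline and, in young animals, arginine. The gene name does not fix the membrane: Slc25a17 sits in peroxisomes and Slc25a46 in the outer mitochondrial membrane.

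Every level is a log2 RMA value, and each change is the KO mean less the WT mean. Nfkbia had 5.27, 5.34, 4.73, 4.72 and 5.23 in KO, against 9.19, 8.95, 8.98, 8.95 and 9.85 in WT. The transcripts of the Y chromosome Eif2s3y (-5.20), Uty (-4.47) and Kdm5d (-2.42) were lower in KO too (limma, adjusted p at most 7.72e-05). Their mean level was 3.64 to 3.88 in KO arrays and 7.43 to 8.09 in WT arrays, so this difference follows the labels KO and WT throughout. Its part in the results below cannot be told apart from that of the deletion and was not tested. Ddx3y and Xist, on the same list, are unnamed here. The array medians lay between 6.07 and 6.23 in KO and between 6.03 and 6.12 in WT. The 5222 probe sets with neg in their names, taken as negative controls, had medians of 4.30 to 5.10 in KO and 4.60 to 4.89 in WT, and their 95th percentile lay at 7.17 to 7.77 in KO and 7.26 to 7.59 in WT. Of the 48 members, 18 stood above that percentile on all 10 arrays, and 2, Slc25a21 and Slc25a31, at or below the median on all 10. Another 14, all among those that did not pass, were above the percentile on none, which makes 16 whose differences the background may hide. The 8 added AFFX spike-in controls all had a lower mean in KO, with a median change of -0.52 and a largest size of 0.85, and 3 of the 13 changes called below (Slc25a5, Slc25a11 and Slc25a24) are no larger than that. The 63 ERCC probe sets, taken as spike-in controls from their names alone, had a median change of -0.12 and a largest size of 0.55. Of the 13 changes, 12 exceed that size. If no ERCC RNA was added, these probe sets show background only. The mean level of 9 epithelial markers was 10.47 to 11.02 in KO arrays and 10.87 to 11.12 in WT arrays, though 3 rose and 3 fell. Among them Epcam was at 10.82 ± 0.12 in KO and 11.12 ± 0.16 in WT (SD, n = 5 each). The endothelial gene Pecam1 was at 5.18 ± 0.19 in KO and 5.15 ± 0.03 in WT (SD, n = 5 each), close to the negative controls.

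A minority of the carriers changed between KO and WT organoids, in both directions, and 7 of them by over 2-fold. 5 members rose in KO, 8 fell and 35 did not pass (limma, adjusted p under 0.05). The 13 called members were 27.1% of the family, and over all 19572 tested probe sets 26.7% were called, so the share of the family is near the background and is no result about it. Higher calls made up 10.4% of the members and 15% of all probe sets, and lower calls made up 16.7% and 11.7%. The ornithine carrier Slc25a15 (-3.07), the mitoferrin Slc25a28 (-1.49), the folate carrier Slc25a32 (-1.12) and the coenzyme A carrier Slc25a42 (-1.05) fell by over 2-fold. Slc25a48 (2.82), the ADP/ATP carrier Slc25a4 (1.53) and the uncoupling protein relative Slc25a30 (1.50) rose by over 2-fold. Several had values within the range of the negative controls, so the background may affect their fold sizes. Slc25a48 was above the 95th percentile of those controls on 2 arrays, Slc25a32 on 3, and Slc25a30 and Slc25a42 on 4. For Slc25a15 it was 7 arrays, and for Slc25a4 and Slc25a28 it was 9. These 7 were 14.6% of the members, where 11.5% of all probe sets were called at that size. The median change was -0.07 over the members and -0.01 over all probe sets, and the median size of change was 0.23 and 0.21. In bulk RNA such as this, fewer cells of a type and less RNA per cell cannot be told apart.

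KO and WT arrays did not overlap for 13 members (27.1%, against 21.4% of all probe sets), of which 10 were also called (20.4% of all probe sets met both). The other three, Slc25a3, Slc25a37 and Slc25a46, lay below WT on every KO array by less than 0.5 and did not pass. Among the 35 that did not pass, changes ran from -0.60 to 1.02, and 26 lay within 0.25 of no change. 7 of them had an unadjusted p under 0.05: Slc25a3, Slc25a23, Slc25a27, Slc25a36, Slc25a37, Slc25a46 and Slc25a51.

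**Figure D1:**
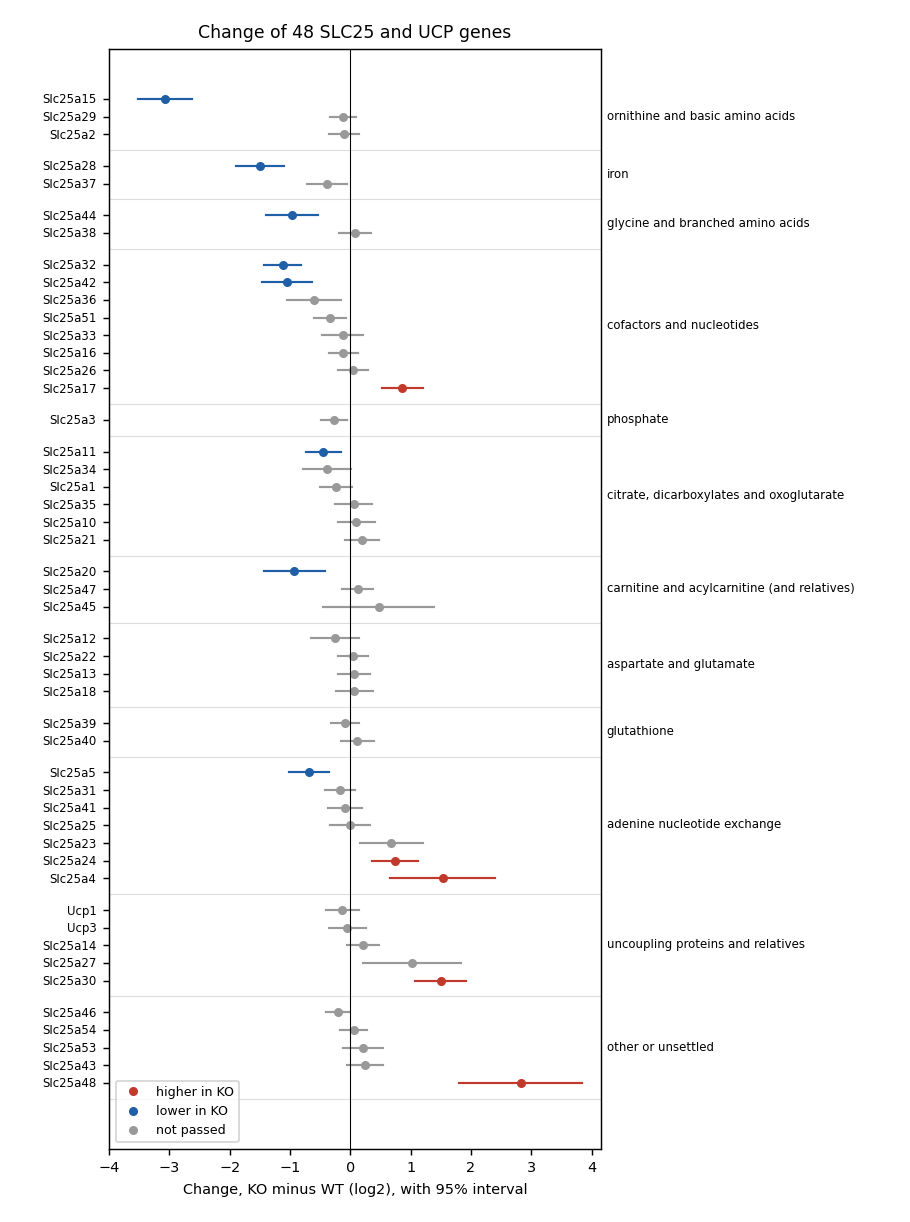
Change of each of the 48 genes on the log2 scale (KO minus WT, horizontal axis), grouped by what they carry; points are limma estimates, bars 95% intervals, red higher in KO, blue lower in KO, grey not passed. Slc25a15 at -3.07 and Slc25a48 at 2.82 are the ends of the range, and most grey points lie within 0.25 of 0.

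Among carriers of ornithine and basic amino acids 1 of 3 members fell and the others did not pass. Slc25a15 brings ornithine into the matrix and citrulline out, which links the mitochondrial and the cytosolic part of the urea cycle. Its level was 7.20, 7.22, 7.85, 7.14 and 7.35 in the KO arrays, against 10.08, 10.47, 10.23, 11.11 and 10.21 in the WT arrays. Every KO array lay more than 2 log2 units below every WT array. The fitted change was -3.07 ± 0.20 (standard error; limma, adjusted p = 4.24e-07), a level 8.41-fold lower in KO and the largest fall in the family. The related ornithine carrier Slc25a2 had 5.23, 4.98, 4.73, 4.76 and 4.95 in KO and 4.88, 5.10, 5.00, 5.11 and 5.06 in WT. These values stay close to the negative control medians in both groups, and the change of -0.10 did not pass (limma, adjusted p = 0.583). Slc25a29, which carries arginine and lysine, had a change of -0.13 that did not pass either (95% interval -0.35 to 0.09).

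RefSeq lists a pair of start sites for Slc25a15, and the 300 bases around each (250 before and 50 after the start, GRCm38.p6, 5′ to 3′) are shown because this gene fell most. They lie at chr8:22398228-22398527, minus strand, and chr8:22398572-22398871, minus strand. The first holds 51 CG dinucleotides and the second 15, where the median over all 32851 such promoter windows was 7 and over the 48 windows of the members 15. None of the 6 motifs searched (described with Slc25a48 below) occurs in either, so no base is in capitals.
Slc25a15, downstream start: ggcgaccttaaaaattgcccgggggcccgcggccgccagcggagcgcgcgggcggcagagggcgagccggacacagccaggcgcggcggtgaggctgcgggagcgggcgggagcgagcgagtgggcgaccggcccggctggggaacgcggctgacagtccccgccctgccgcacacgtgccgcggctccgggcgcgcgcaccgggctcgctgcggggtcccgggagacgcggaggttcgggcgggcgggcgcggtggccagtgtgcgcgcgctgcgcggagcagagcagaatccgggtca
Slc25a15, upstream start: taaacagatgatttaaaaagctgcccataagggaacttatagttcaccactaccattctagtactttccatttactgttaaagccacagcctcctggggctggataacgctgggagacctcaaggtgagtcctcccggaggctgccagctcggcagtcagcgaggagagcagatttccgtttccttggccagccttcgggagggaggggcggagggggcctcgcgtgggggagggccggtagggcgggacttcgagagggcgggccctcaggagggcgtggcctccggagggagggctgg

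Of the ADP/ATP carriers Slc25a4 rose and Slc25a5 fell. These proteins swap ADP from the cytosol for ATP made in the matrix. Slc25a4, in mice the form known from heart and muscle, had 9.95, 10.59, 10.54, 10.24 and 10.66 in the KO arrays, against 9.58, 9.24, 9.58, 7.20 and 8.70 in the WT arrays. All KO values lay above all WT values, and WT replicate 4 was the lowest of the 10. Its change came to 1.53, with standard error 0.40 (limma, adjusted p = 0.0131), and without WT replicate 4 it was 1.12 (limma, adjusted p = 0.00245). Slc25a5, the form of most dividing cells, had 11.28, 11.86, 11.86, 11.36 and 11.09 in the KO arrays, against 12.13, 12.19, 12.18, 12.18 and 12.17 in the WT arrays. The WT values were within 0.1 of each other and above all KO values. KO differed from WT by -0.68 (standard error 0.15; limma, adjusted p = 0.00569), a size below the largest AFFX and above the largest ERCC spike-in change. Slc25a31, the form of the germ line, stayed at or below the negative control median on all 10 arrays.

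The 300 bases around the starts of both genes are printed for this opposite movement: Slc25a4 at chr8:46211013-46211312, minus strand, and Slc25a5 at chrX:36795347-36795646, plus strand (GRCm38.p6). Capitals mark the single motif match, an ETS motif (CCGGAAG) that begins at -130 from the Slc25a4 start. 8.86% of all promoter windows hold that motif on either strand.
Slc25a4: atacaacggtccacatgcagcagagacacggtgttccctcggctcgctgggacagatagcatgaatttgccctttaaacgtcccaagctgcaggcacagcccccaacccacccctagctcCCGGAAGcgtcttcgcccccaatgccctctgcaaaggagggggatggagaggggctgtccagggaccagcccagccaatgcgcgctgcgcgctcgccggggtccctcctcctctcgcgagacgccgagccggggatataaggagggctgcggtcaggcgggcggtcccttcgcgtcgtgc
Slc25a5: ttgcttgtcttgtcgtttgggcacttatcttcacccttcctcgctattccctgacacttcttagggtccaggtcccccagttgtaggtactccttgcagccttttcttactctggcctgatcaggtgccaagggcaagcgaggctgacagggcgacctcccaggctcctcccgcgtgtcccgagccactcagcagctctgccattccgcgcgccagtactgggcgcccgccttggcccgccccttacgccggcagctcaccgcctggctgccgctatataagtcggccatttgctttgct

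The ATP-Mg/phosphate carriers adjust the total adenine nucleotide content of the matrix, and some of them respond to calcium. Slc25a24 had 9.45, 9.54, 9.73, 9.75 and 9.28 in the KO arrays, against 8.75, 9.07, 8.37, 9.30 and 8.58 in the WT arrays. 1 KO array lay just below the highest WT array. The fitted change was 0.74 ± 0.18 (standard error; limma, adjusted p = 0.00808). Slc25a23 had 9.03, 9.14, 8.90, 9.56 and 10.12 in KO and 8.95, 8.51, 9.08, 8.29 and 8.51 in WT, with KO replicate 5 the highest. Its change of 0.68 did not pass (limma, adjusted p = 0.0532), but passed when KO replicate 1, KO replicate 3 or WT replicate 3 was left out (adjusted p by limma, 0.049, 0.0337 and 0.039). Slc25a25 had 7.32, 7.59, 7.31, 7.02 and 6.71 in KO and 7.31, 7.13, 7.26, 7.06 and 7.23 in WT, a change of -0.01 with a 95% interval of -0.34 to 0.32. Slc25a41, at a change of -0.08, did not pass. The phosphate carrier Slc25a3, which supplies the other substrate of ATP synthase, had 10.82, 11.06, 11.20, 11.08 and 11.03 in KO and 11.25, 11.39, 11.34, 11.31 and 11.28 in WT. All KO values were lower, but the change of -0.27 did not pass (limma, adjusted p = 0.0546). Without KO replicate 3 it passed (limma, adjusted p = 0.0394).

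Uncoupling proteins let protons return to the matrix without making ATP, as Ucp1 does in brown fat. Ucp1 and Ucp3, the form of muscle, lay near the negative control medians, at 4.43 ± 0.19 in KO and 4.56 ± 0.18 in WT (SD, n = 5 each) for Ucp1 and 4.59 ± 0.25 in KO and 4.64 ± 0.20 in WT (SD, n = 5 each) for Ucp3, and neither passed. Of the relatives, Slc25a30 had 7.04, 7.95, 7.73, 7.60 and 8.15 in the KO arrays, against 6.18, 5.84, 6.39, 6.26 and 6.33 in the WT arrays. The lowest KO value was above the highest WT value. Its change came to 1.50, with standard error 0.19 (limma, adjusted p = 0.000107), or 2.82-fold higher in KO. Slc25a27 had 6.80, 5.23, 5.45, 6.34 and 6.97 in KO and 5.79, 4.73, 5.67, 4.61 and 4.86 in WT, and spread widely in both groups. Its change of 1.02 did not pass (limma, adjusted p = 0.062), though it passed when KO replicate 2, KO replicate 3 or WT replicate 1 was left out (limma, adjusted p = 0.021, 0.0378 and 0.0439). Slc25a14 had 5.32, 5.32, 5.22, 5.30 and 5.53 in KO and 5.01, 4.95, 4.96, 5.47 and 5.25 in WT, a change of 0.21 that did not pass.

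Of 6 carriers of citrate and dicarboxylates 1, Slc25a11, passed. Slc25a1 exports citrate for the synthesis of fatty acids and sterols in the cytosol, and its change of -0.24 did not pass (95% interval -0.51 to 0.02). Slc25a11 exchanges oxoglutarate for malate and is a part of the malate-aspartate shuttle. Its level was 10.11, 10.02, 9.94, 9.99 and 10.10 in the KO arrays, against 10.16, 10.46, 10.36, 10.92 and 10.50 in the WT arrays, with every KO array below every WT array. KO differed from WT by -0.45 (standard error 0.13; limma, adjusted p = 0.0268). The call was lost when KO replicate 3 or 4, or WT replicate 2 or 5, was dropped (adjusted p by limma, 0.0565, 0.058, 0.0528 and 0.0556), and the change is smaller than the largest of either set of spike-ins. Slc25a10, which exchanges malate or succinate for phosphate, had 10.25, 10.01, 10.32, 10.46 and 10.10 in KO and 10.08, 9.99, 9.82, 10.41 and 10.34 in WT, a change of 0.10. Slc25a21, the carrier of oxoadipate, was at or below the negative control median on all arrays. Slc25a34 had 6.24, 6.28, 5.76, 6.06 and 6.0 in KO and 6.39, 6.55, 6.09, 7.09 and 6.16 in WT, and Slc25a35 had 7.60, 8.10, 8.01, 7.89 and 7.83 in KO and 7.81, 7.68, 7.90, 7.55 and 8.21 in WT. What Slc25a34 and Slc25a35 move is unsettled, and their changes of -0.39 and 0.06 did not pass.

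None of the 4 aspartate and glutamate carriers passed. Slc25a12 and Slc25a13 export aspartate for glutamate and complete the malate-aspartate shuttle, Slc25a12 mostly in brain and muscle and Slc25a13 mostly in liver. Slc25a12 had 8.45, 9.24, 9.53, 9.25 and 9.24 in KO and 9.11, 9.57, 9.50, 9.47 and 9.33 in WT, and KO replicate 1 stood below the other nine arrays. Slc25a13 had 8.10, 8.26, 8.21, 8.04 and 8.01 in KO and 8.21, 7.97, 8.40, 7.85 and 7.90 in WT. The changes were -0.25 (95% interval -0.65 to 0.15) and 0.06 (-0.21 to 0.33). Slc25a22, which imports glutamate with a proton, had 8.04, 7.86, 7.94, 7.99 and 7.98 in KO and 7.77, 7.72, 7.87, 8.24 and 7.98 in WT. Slc25a18, the other glutamate carrier, had 5.44, 5.63, 5.44, 5.16 and 5.72 in KO and 5.80, 5.29, 5.25, 5.33 and 5.41 in WT. Their changes of 0.04 and 0.06 had intervals of -0.20 to 0.29 and -0.24 to 0.37.

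Slc25a20, the carnitine and acylcarnitine carrier through which long-chain fatty acids reach the matrix, fell. Its level was 7.60, 7.57, 7.47, 7.77 and 7.98 in the KO arrays, against 7.92, 8.69, 8.42, 9.42 and 8.59 in the WT arrays. KO replicate 5 and WT replicate 1 overlapped by less than 0.1, and the other arrays were apart. The fitted change was -0.93 ± 0.23 (standard error; limma, adjusted p = 0.0101), a level 1.91-fold lower in KO. Slc25a47 and Slc25a45 were placed beside it as relatives by sequence. Slc25a47, known from liver, had a change of 0.12 that did not pass. Slc25a45 had 8.22, 8.16, 7.93, 7.59 and 8.14 in KO and 6.57, 8.01, 6.42, 9.02 and 7.66 in WT, the widest spread of any member in WT, and its change of 0.47 did not pass (95% interval -0.45 to 1.39).

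Both mitoferrins, which bring iron into mitochondria for heme and iron-sulfur clusters, were lower on every KO array than on any WT array, but only Slc25a28 passed. Slc25a28, the form of most tissues, had 7.73, 7.50, 7.47, 7.64 and 7.65 in the KO arrays, against 9.57, 8.81, 8.57, 9.47 and 9.03 in the WT arrays. The KO arrays agreed within 0.3 of each other. Its change came to -1.49, with standard error 0.18 (limma, adjusted p = 7.01e-05), or 2.81-fold lower. Slc25a37, the form needed in red cell precursors, had 7.63, 7.75, 7.82, 7.73 and 7.72 in KO and 7.83, 8.13, 7.84, 8.65 and 8.13 in WT. Its change was -0.39 (limma, adjusted p = 0.0807), which passed without WT replicate 1 (limma, adjusted p = 0.0483).

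Carriers of cofactors and nucleotides held calls in both directions. Slc25a32, which brings folate (and, by other reports, FAD) into mitochondria, had 6.12, 6.60, 6.66, 6.41 and 6.10 in the KO arrays, against 7.61, 7.45, 7.72, 7.39 and 7.33 in the WT arrays. No KO value reached the WT range. KO differed from WT by -1.12 (standard error 0.14; limma, adjusted p = 7.63e-05). Slc25a42, the mitochondrial carrier of coenzyme A, had 6.12, 6.24, 6.49, 7.11 and 6.53 in the KO arrays, against 7.10, 7.56, 7.64, 7.80 and 7.64 in the WT arrays, with KO replicate 4 level with the lowest WT array. The fitted change was -1.05 ± 0.19 (standard error; limma, adjusted p = 0.00144). The peroxisomal carrier Slc25a17, which handles coenzyme A and related nucleotides there, went the other way. Slc25a17 had 10.17, 10.54, 10.34, 10.49 and 10.55 in the KO arrays, against 9.10, 9.57, 9.48, 10.00 and 9.63 in the WT arrays, and its lowest KO array exceeded its highest WT array. Its change came to 0.86, with standard error 0.16 (limma, adjusted p = 0.00142).

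The pyrimidine nucleotide carriers did not pass. Slc25a36 had 8.69, 9.03, 8.24, 9.07 and 9.33 in KO and 9.61, 9.50, 9.24, 9.89 and 9.14 in WT. The change of -0.60 narrowly missed the threshold (limma, adjusted p = 0.051), and was past it once KO replicate 5 or WT replicate 5 was dropped (adjusted p by limma, 0.0278 and 0.0443). Slc25a33 had 5.33, 5.63, 5.55, 5.41 and 4.95 in KO and 5.63, 5.29, 5.56, 5.23 and 5.81 in WT, a change of -0.13. The change of the NAD carrier Slc25a51 was -0.34 (limma, adjusted p = 0.059; without KO replicate 2, adjusted p = 0.0424), that of the S-adenosylmethionine carrier Slc25a26 0.04 and that of Slc25a16 -0.11, and none passed with all arrays. For Slc25a26 and Slc25a16 the 95% intervals were -0.20 to 0.29 and -0.35 to 0.12.

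The glutathione carriers Slc25a39 and Slc25a40, which supply the matrix with its main thiol antioxidant, did not pass. Slc25a39 had 9.85, 10.05, 9.81, 9.94 and 10.16 in KO and 10.10, 9.91, 10.07, 9.96 and 10.21 in WT, and Slc25a40 had 6.98, 6.78, 7.16, 7.01 and 7.24 in KO and 6.67, 6.78, 7.13, 7.07 and 6.92 in WT. The changes were -0.09 and 0.12, with 95% intervals of -0.32 to 0.14 and -0.16 to 0.39. Of the amino acid carriers that remain, Slc25a44, which imports branched-chain amino acids, had 8.03, 8.23, 8.56, 8.72 and 8.26 in the KO arrays, against 8.81, 9.55, 9.05, 9.83 and 9.43 in the WT arrays. KO replicate 4 came closest to WT, and the groups did not overlap. KO differed from WT by -0.97 (standard error 0.20; limma, adjusted p = 0.00319). Slc25a38, which carries glycine for the first step of heme synthesis, did not pass at a change of 0.07 (95% interval -0.20 to 0.34).

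Slc25a48, a carrier linked to choline import into mitochondria, had the largest rise. Its level was 7.09, 8.52, 9.25, 6.90 and 6.85 in the KO arrays, against 4.14, 5.05, 5.48, 4.51 and 5.32 in the WT arrays. KO replicates 2 and 3 were above the other KO arrays by over 1 log2 unit, and the lowest KO array was still above the highest WT array. The fitted change was 2.82 ± 0.47 (standard error; limma, adjusted p = 0.000738), or 7.08-fold higher in KO. The WT mean of 4.90 lay near the negative control medians, with 2 WT arrays at or below theirs. Of the members with no settled substrate, the outer membrane protein Slc25a46, which acts in mitochondrial shape, was lower on all KO arrays with a change of -0.21 that did not pass (limma, adjusted p = 0.0992). Slc25a43 (0.24), Slc25a53 (0.21) and Slc25a54 (0.06) did not pass.

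Promoter windows were found for 38 of the 48 members, with 48 start sites. 6 motifs were sought on both strands: NRF1, by its 10-letter core, ETS (CCGGAAG), ERR (TNAAGGTCA), HNF4 (CAAAGTCCA), AP-1 (TGANTCA) and the κB motif of NF-kB, a 10-letter consensus. The κB motif was in 4 member windows (8.33%, against 8.46% of all windows), those of the called Slc25a17 and Slc25a48 and of Slc25a1 and Slc25a10, which did not pass. ETS was in 7 (14.6%, against 8.86%), NRF1 in 3 (6.25%, against 6.23%), AP-1 in 2 (4.17%, against 7.81%), and ERR and HNF4 in 0, against 1.28% and 0.475%. The windows of the 2 members that rose and hold a κB match are printed with matches in capitals (GRCm38.p6): Slc25a48 at chr13:56438105-56438404, plus strand, where the κB match begins at -139, and Slc25a17 at chr15:81360716-81361015, minus strand, with κB at -147 and ETS at -77. A match is a string of letters and not a shown binding site.
Slc25a48: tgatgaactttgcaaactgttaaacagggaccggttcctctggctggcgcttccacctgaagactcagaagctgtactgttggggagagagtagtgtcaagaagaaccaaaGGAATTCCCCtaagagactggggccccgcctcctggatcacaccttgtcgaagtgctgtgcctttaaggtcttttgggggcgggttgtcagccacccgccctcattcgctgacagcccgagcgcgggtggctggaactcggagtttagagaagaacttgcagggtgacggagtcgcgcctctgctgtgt
Slc25a17: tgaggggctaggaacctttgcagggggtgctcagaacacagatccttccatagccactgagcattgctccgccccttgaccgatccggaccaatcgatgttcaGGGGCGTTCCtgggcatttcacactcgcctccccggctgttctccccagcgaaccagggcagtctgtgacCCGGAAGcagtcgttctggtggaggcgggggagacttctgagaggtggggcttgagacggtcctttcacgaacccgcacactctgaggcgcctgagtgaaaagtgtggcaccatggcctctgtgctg

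**Figure D2:**
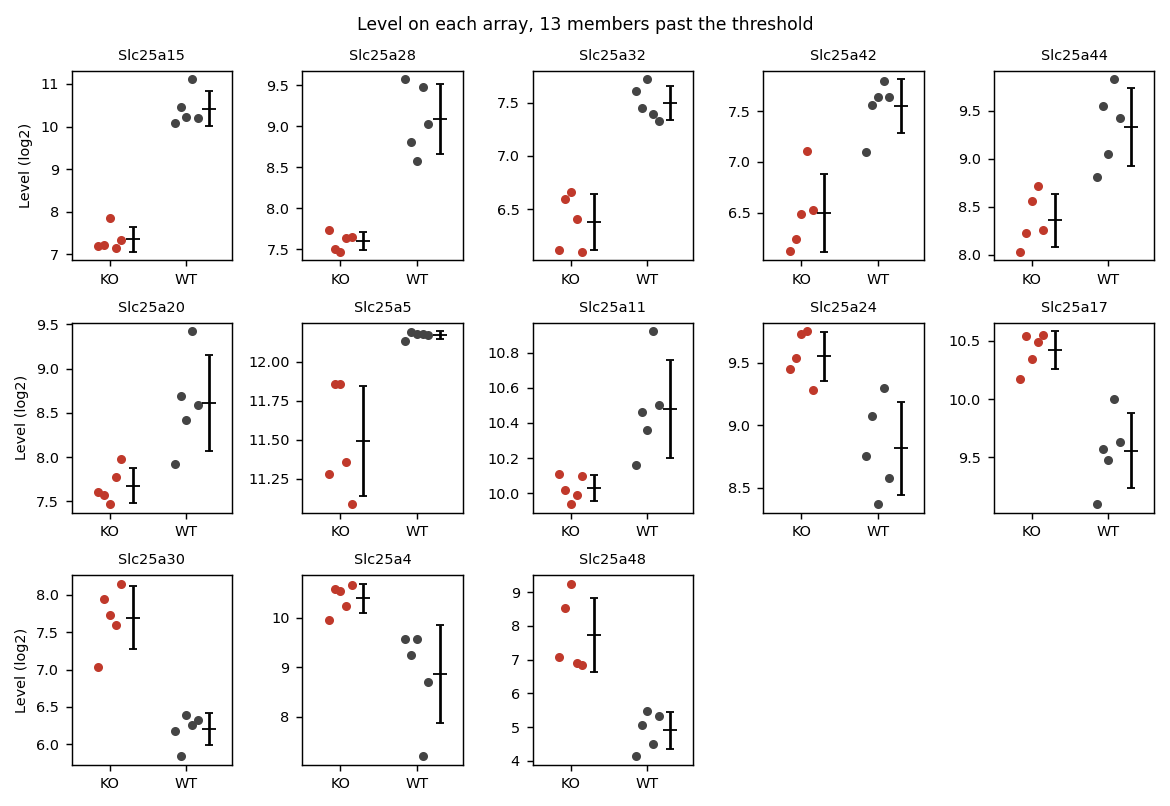
Level of each called member on every array (log2, vertical axes differ and do not start at 0); points are arrays, KO in red left of WT in grey, with the mean and SD beside them. Slc25a20, Slc25a24 and Slc25a42 are the 3 panels in which KO and WT overlap, and WT replicate 4 is the low point of Slc25a4.

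Whether related carriers changed by different amounts was tested directly for 12 pairs, by taking the difference of the pair within each array and comparing it between KO and WT (an exact permutation test, two-sided, with p adjusted over these 12). 5 pairs differed, each with all KO arrays outside the WT range; p = 0.00794 is the smallest these 10 arrays can give, and its adjusted value was 0.019 (exact permutation test). Slc25a5 minus Slc25a4 was 0.42 to 1.33 in KO and 2.55 to 4.98 in WT, so the changes of the ADP/ATP carriers differed by -2.22 (standard error 0.48). The ornithine carriers Slc25a15 and Slc25a2 differed by -2.97 (standard error 0.25). For the mitoferrins, Slc25a37 minus Slc25a28 was -0.10 to 0.35 in KO and -1.74 to -0.68 in WT, a difference of 1.10 (standard error 0.21). Slc25a10 and Slc25a11 differed by 0.55 (standard error 0.14), and Slc25a14 and Slc25a30 by -1.29 (standard error 0.20). Slc25a2 and Slc25a14 were above the 95th percentile of the negative controls on 0 arrays, so those 2 pairs set a measured change against one that the background may hide.

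The other 7 pairs did not pass. Slc25a24 and Slc25a25 differed by 0.74 (standard error 0.25; exact permutation test, p = 0.0317, adjusted 0.0635), and this passed without WT replicate 4 (adjusted p = 0.0317, exact permutation test). Slc25a24 and Slc25a23, both higher in the KO means, differed by 0.06 (standard error 0.41), and the glutamate carriers Slc25a22 and Slc25a18 by -0.02 (standard error 0.19). The differences were 0.31 for Slc25a13 and Slc25a12, -0.48 for Slc25a36 and Slc25a33, 0.21 for Slc25a40 and Slc25a39, and 0.44 for Slc25a35 and Slc25a34. Their standard errors were 0.23, 0.35, 0.14 and 0.31.

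**Figure D3:**
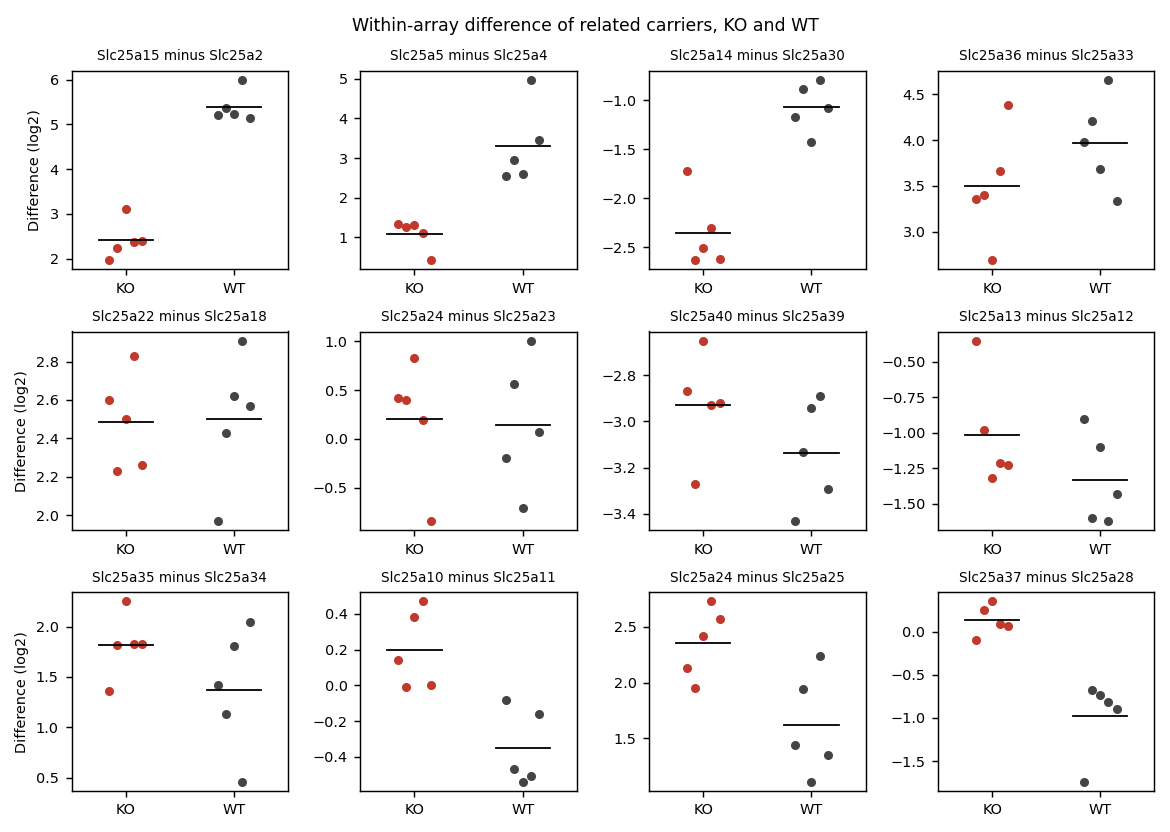
Within-array difference of 12 pairs of related carriers (log2, first gene minus second, vertical axes differ); points are arrays, KO in red left of WT in grey, and lines are group means. In the panels of Slc25a15 with Slc25a2, Slc25a5 with Slc25a4, Slc25a14 with Slc25a30, Slc25a10 with Slc25a11 and Slc25a37 with Slc25a28 the 5 KO points lie wholly to 1 side of the 5 WT points.

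Genes that work with the carriers, among them enzymes, other transporters, import machinery and regulators, were followed in 14 lists with 157 measured genes. Of these 10 rose, 72 fell and 75 did not pass. Lower calls made up 45.9%, against 11.7% of all probe sets, and higher calls 6.37%, against 15%. The median change over these genes was -0.39, against -0.07 over the carriers. All 8 AFFX spike-in controls also had a lower mean in KO, with a median change of -0.52 and a largest size of 0.85. The median of -0.39, and those of the citric acid cycle (-0.76) and fatty acid oxidation lists (-0.83), are no larger than that size. Many single changes below are no larger either. Whether such an offset enters them was not tested. The lists were chosen with earlier results of these data known, so these shares and medians describe the lists and test nothing. Of the carriers, 16 were above the 95th percentile of the negative controls on 0 arrays, where the background may hide changes. Enzymes around ornithine were the furthest from 0: of 8 measured, 0 rose, 6 fell and 2 did not pass, with a median of -3.78. Cps1, which makes carbamoyl phosphate in the matrix, stood at 4.30 ± 0.15 in KO and 11.90 ± 0.26 in WT (SD, n = 5 each). Otc, which joins carbamoyl phosphate to the ornithine that Slc25a15 brings in, stood at 3.98 ± 0.12 in KO and 9.84 ± 0.18 in WT (SD, n = 5 each). The activator enzyme Nags changed by -4.09, and Oat, which makes ornithine in the matrix, by -3.46 (limma, adjusted p at most 1.18e-07). In KO, Cps1 was at or below the negative control median on 4 arrays and Otc on 5.

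Beside Slc25a20, genes of the carnitine shuttle and fatty acid oxidation were mostly lower: of 14 measured, 0 rose, 12 fell and 2 did not pass (median -0.83). The carnitine transferases Cpt1a (-0.84) and Cpt2 (-0.81) were among them. The 4 with the smallest p were the dehydrogenase Hadh (-1.83), the thiolase Acaa2 (-1.95), the electron carrier Etfa (-1.09) and the trifunctional protein subunit Hadhb (-1.29). Over the alternatives 9 to 13 of this list fell. Acadm, Acadl and Crat lost their calls without WT replicate 2 or 5, among other single arrays (limma, adjusted p up to 0.0853). Of 17 measured citric acid cycle genes, 0 rose, 15 fell and 2 did not pass (median -0.76), led by Suclg1 (-0.96), Sdhb (-1.56), Mdh2 (-1.15) and Dld (-0.76); 1 rose, Idh2, without WT replicate 1 or 3. In the malate-aspartate and glycerol phosphate shuttles, of 6 measured, 0 rose, 4 fell and 2 did not pass. The dehydrogenases Gpd2 (-1.88), Mdh1 (-1.04) and Mdh2 were lower, and so was Gpd1 (-1.24), whose call was lost when KO replicate 1, 2 or 3, or WT replicate 2, 4 or 5, was left out (limma, adjusted p up to 0.0898). The transaminases Got1 and Got2 did not pass, nor did the carriers Slc25a12 and Slc25a13 of the same shuttle.

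Genes that work with the mitoferrins, in heme and iron-sulfur synthesis, included the heme enzyme Cpox (-1.59) and the cluster assembly proteins Isca1 (-0.52) and Iscu (-0.48) among those lower, with Abcb10 (-0.61). Of 14 measured 0 rose, 6 fell and 8 did not pass (median -0.35), and 1 rose without KO replicate 2 (Fech) or WT replicate 4 (Ppox). Over the alternatives 4 to 8 fell. Glrx5 and Lyrm4 lost their calls without WT replicate 2 or 3, among other single arrays (limma, adjusted p up to 0.0619). For coenzyme A, NAD and thiamine, of 13 measured, 1 rose, 6 fell and 6 did not pass (median -0.34), and the riser, Nmnat3, was lost without KO replicate 4 or WT replicate 1 or 3. The kinases of coenzyme A synthesis Pank1 (-1.52) and Pank3 (-1.39) fell beside Slc25a42, as did the mitochondrial NAD kinase Nadk2 (-1.78) and Nmnat1 (-0.68). Of 8 measured one-carbon and glycine genes, 2 rose, 1 fell and 5 did not pass. Amt changed by 0.94, Gcsh by -0.62 and Gldc by 0.38, and Mthfd2 (-0.53) did not pass. Amt and Gldc were above the 95th percentile of the negative controls on 0 arrays, so the background may affect both rises. Mthfd2 passed without WT replicate 4 (limma, adjusted p = 0.0387), and only 1 gene of this list rose when KO replicate 1, 4 or 5 was dropped, or WT replicate 1, 3 or 5, since Gldc then lost its call.

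In the glutathione and thiol list, of 9 measured, 2 rose, 2 fell and 5 did not pass. The subunits of the enzyme that starts glutathione synthesis, Gclc (1.30) and Gclm (0.85), rose, and the mitochondrial thioredoxin reductase Txnrd2 (-0.82) and glutathione synthetase Gss (-0.94) fell, while Slc25a39 and Slc25a40 did not pass. Of 7 measured genes of cytosolic citrate use, 1 rose, 3 fell and 3 did not pass. The malic enzyme Me1 (1.82) rose, and Aco1 (-0.96), Acaca (-0.48) and Scd1 (-0.95) fell. Only 1 fell without KO replicate 5 or WT replicate 3, Acaca also lost its call without KO replicate 2 or 4, and Scd1 without any 1 array other than KO replicates 2 and 4. Of 10 measured genes of branched-chain amino acid breakdown, 1 rose, 1 fell and 8 did not pass, and both calls were lost when certain single arrays were left out. Bcat2 (0.77) was no longer called when KO replicate 2, 3, 4 or 5 or WT replicate 4 was left out (limma, adjusted p up to 0.064), and Ivd (-0.42) was not when KO replicate 1, 4 or 5 or WT replicate 2, 3 or 5 was (limma, adjusted p up to 0.0801). Ppm1k (0.67) and Bckdha (0.45) did not pass, but Ppm1k did without KO replicate 1 and Bckdha did without either KO replicate 2 or WT replicate 3 (by limma, adjusted p = 0.00505 and at least 0.041). Bckdhb (-0.67) passed as lower without WT replicate 4 (limma, adjusted p = 0.00241), which made 2 that fell.

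Other transporters of mitochondrial membranes were lower more often than higher: of 14 measured, 1 rose, 7 fell and 6 did not pass, led by Sfxn3 (1.90), Mtch2 (-0.78), the pyruvate carrier subunit Mpc1 (-0.68) and Letm1 (-0.88). Of 15 measured genes of the machinery that brings carriers into the inner membrane, 0 rose, 3 fell and 12 did not pass, and 5 fell without WT replicate 4. The receptor for carrier precursors Tomm70a fell by 0.92, Timm50 by 0.46 and Timm44 by 0.41, the last losing its call when KO replicate 1, 3 or 4 or WT replicate 1 or 3 was left out (limma, adjusted p up to 0.0625). Tomm20 (-0.34) passed only without WT replicate 4. Of 13 measured genes of mitochondrial DNA upkeep, 2 rose, 3 fell and 8 did not pass, with 5 lower without WT replicate 4. Tk2 (1.01) and Rrm2b (1.18), which supply deoxynucleotides, rose, and the DNA packaging factor Tfam (-1.04) and the exonuclease Mgme1 (-0.90) fell. Rrm2b was above the 95th percentile of the negative controls on 0 arrays, Mgme1 on 2, Tk2 on 4 and Tfam on 5. The background may therefore affect these changes. Of 10 measured regulators, 0 rose, 4 fell and 6 did not pass: Ppara (-2.93), which drives fatty acid oxidation genes, Esrrg (-2.48), and the coactivators Ppargc1b (-1.19) and Ppargc1a (-2.11). 1 regulator rose without WT replicate 3.

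**Figure D4:**
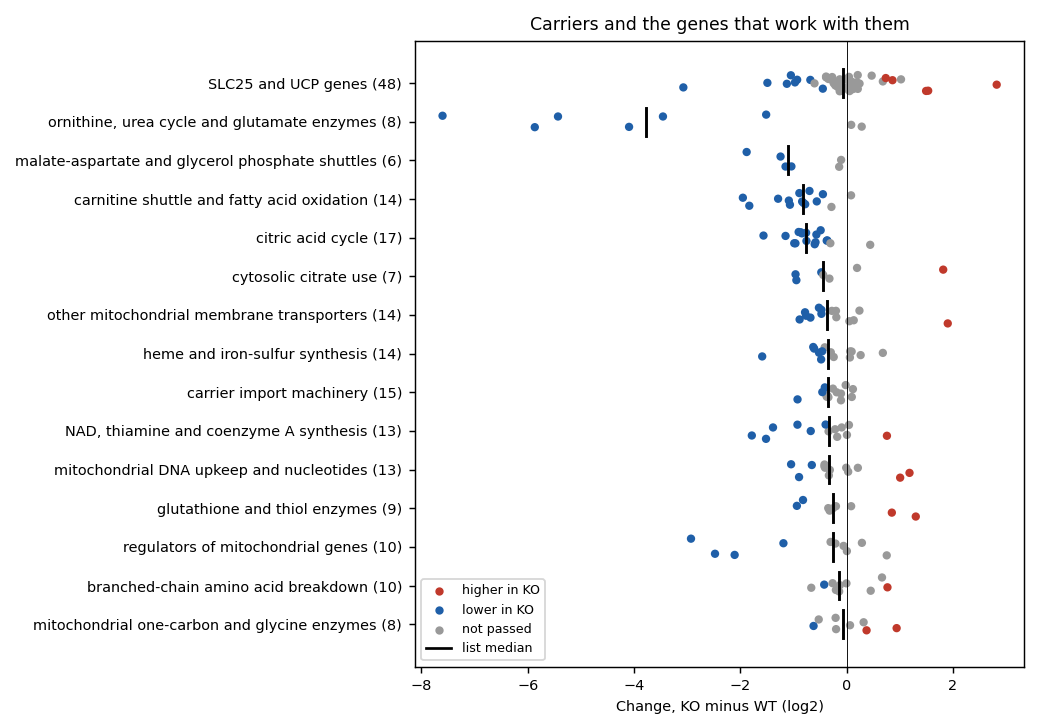
Change of each gene (log2, KO minus WT, horizontal axis) for the 48 carriers in the top row and for 14 lists of genes that work with them below, with the number measured in brackets; points are genes, red higher in KO, blue lower in KO, grey not passed, and black bars list medians. The ornithine and urea cycle list lies furthest to the left, with a median of -3.78, and the carriers are centred near 0.

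Cell type markers moved with the same comparison. Of 14 measured markers of the absorptive enterocyte, 0 rose, 13 fell and 1 did not pass, and their mean level was 5.47 to 5.89 in KO arrays and 9.87 to 11.68 in WT arrays, with Sis (-7.22) lowest and Dpp4 (-0.12) highest. Paneth cell markers had mean levels of 5.85 to 6.13 in KO and 10.86 to 11.11 in WT, and of 7, 1 rose, 6 fell and 0 did not pass, with Defa24 (-7.94) lowest and Mmp7 (3.05) highest. Enteroendocrine markers had 5.30 to 5.56 in KO and 7.80 to 8.50 in WT, and of 7, 0 rose, 6 fell and 1 did not pass, with Chgb (-4.81) lowest and Pyy (-0.05) highest. The part of these cell types in the carrier changes was not tested. Goblet cell markers spread over 7.67 to 11.12 in KO and 10.27 to 11.44 in WT, and of 7, 0 rose, 5 fell and 2 did not pass, with Zg16 (-2.91) lowest and Clca1 (0.46) highest; 1 to 3 fell without any 1 of KO replicates 1, 2 and 3 or WT replicates 1, 2, 4 and 5. Of 6 stem cell markers, 0 rose, 3 fell and 3 did not pass (Smoc2 (-1.91) lowest and Slc12a2 (-0.21) highest), and all 6 fell without WT replicate 4. Of 7 proliferation markers, 0 rose, 1 fell and 6 did not pass (Mki67 (-1.44) lowest and Mcm2 (-0.47) highest), with mean levels of 7.26 to 9.94 in KO and 8.35 to 10.06 in WT. That single call, Pcna, was lost when KO replicate 1, 4 or 5 or WT replicate 1, 2, 3 or 5 was left out, and without KO replicate 3 the count was 3.

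Other marker lists had calls in both directions or few. Of 9 epithelial markers, 3 rose, 3 fell and 3 did not pass (Cdx2 (-2.16) lowest and Krt18 (1.43) highest). Of 6 tuft cell markers, 1 rose, 0 fell and 5 did not pass (Trpm5 (-0.40) lowest and Dclk1 (1.29) highest), where none rose without KO replicate 4 or WT replicate 2 and 1 fell without KO replicate 1. Of 7 fibroblast markers, 0 rose, 1 fell and 6 did not pass (Lum (-0.39) lowest and Col1a2 (0.18) highest; 2 fell without KO replicate 1), with a mean level of 5.25 to 5.51 in KO and 5.37 to 5.64 in WT. Of 6 immune markers, 2 rose, 1 fell and 3 did not pass (Lyz2 (-4.18) lowest and Itgam (1.56) highest), of 6 endothelial markers, 0 rose, 0 fell and 6 did not pass (Tek (-0.31) lowest and Cldn5 (0.10) highest; 1 fell without WT replicate 4), and of 6 muscle, glia and neuron markers, 1 rose, 0 fell and 5 did not pass (Tagln (-0.08) lowest and S100b (0.46) highest). The mean levels of the immune list were 5.52 to 5.96 in KO and 5.69 to 6.02 in WT.

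4 members lie on the X chromosome. Slc25a5 fell (-0.68), and Slc25a14 (0.21), Slc25a43 (0.24) and Slc25a53 (0.21) had positive changes that did not pass. The other 12 called members lie on autosomes.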

How the data were processed

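Total RNA from 10 mouse intestinal organoid samples was hybridised to 1 array each, after labelling of 100 ng with biotin per the labels' protocols. The deposited values are log2 levels, 1 for each probe set on each array; the submitters' processing notes name RMA and limma, without versions. Whether all arrays were normalized together is not stated there. Of 28846 probe sets, 6640 were controls, 19572 had 1 gene symbol, 0 several and 2634 none. The deposited values were used as they were. KO was compared with WT by limma 3.58.1 (R 4.3.3) on all probe sets without covariates, with Benjamini-Hochberg adjustment over the 19572 and a threshold of 0.05; intervals are at 95% from the moderated fit. Tables and figures used matplotlib 3.10.9, numpy 2.4.6, pandas 2.3.3 and Python 3.11.15. Members, the 14 partner and 13 marker lists, pairs and motifs were chosen with earlier results of these data known. All members were named, with values on every array for called members and pairs. Partner lists are named by their 4 smallest p and marker lists by their extremes. Others (Cpt1a, Cpt2, Acadm, Acadl, Crat, Epcam, Pecam1, Got1, Got2, Idh2, Fech, Ppox, Glrx5, Lyrm4, Nmnat3, Pcna, Bckdhb) were named after their values were seen. Symbols come from the probe-to-gene pairing of the array platform, and chromosomes and promoter windows from RefSeq (GRCm38.p6). Alternatives changed normalization, filter, variance model, weights, adjustment, probe set averaging, pairing, null hypothesis and arrays. Tested on simulated data, in which 200 genes of 19572 probe sets were changed, the KO against WT step recovered 22% of changes of 0.5, 76% of 1, 98% of 2 and 100% of 4 on the log2 scale, with 6 false calls among 154. In the data 26.7% of probe sets were called, far more than were changed in the simulation. The simulated noise was also independent between probe sets, so these rates need not hold for the data. The number of arrays limits the precision, and scanner files were not used here.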

Additional observations from a re-analysis of the deposited data

Results flagged for a closer look

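Among the 96 groups of 5 arrays (48 genes in KO and in WT), 2 held an array whose gap to its nearest neighbour was over 0.71 of the whole range of the group (Dixon's ratio). Chance gives about 1 in 20 such groups. Slc25a12 stood at 8.45 in KO replicate 1, where the other KO arrays had 9.24 to 9.53; without that array the change was -0.08 (limma, adjusted p = 0.719). Slc25a53 stood at 5.52 in KO replicate 3, where the other KO arrays had 6.06 to 6.16; without it the change was 0.33 (limma, adjusted p = 0.0899).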

How the results depend on the processing

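Over the alternatives for the members, 4 to 7 rose and 6 to 11 fell, against 5 and 8. 7 to 15 partner genes rose and 62 to 86 fell, against 10 and 72. Tested against a 1.2-fold change, Slc25a5, Slc25a11 and Slc25a24 lost their calls (limma's treat, adjusted p = 0.0584, 0.383 and 0.0617). Without KO replicate 2 and WT replicate 4 together Slc25a11 lost its call (limma, adjusted p = 0.0553), Slc25a27 passed (limma, adjusted p = 0.0429), 7 pairs differed in place of 5, and the uncalled Slc25a13 (-0.029), Slc25a35 (-0.067) and Slc25a22 minus Slc25a18 (0.15) changed sign. With array weights Slc25a26 (-0.016) and Slc25a38 (-0.023) did, neither called. Leaving out single arrays turned the sign of some uncalled values: Slc25a22 -0.0049 to 0.13, Slc25a25 -0.11 to 0.11, Slc25a26 -0.023 to 0.083, Slc25a35 -0.013 to 0.15, Ucp3 -0.11 to 0.036, Slc25a24 minus Slc25a23 -0.16 to 0.31 and Slc25a22 minus Slc25a18 -0.15 to 0.085. The cause was not tested. Whether same-numbered KO and WT arrays belong together is not stated in the labels, and 5 correlations cannot decide it. The correlations of their deviations were -0.07 to 0.36, and 2 of 5 KO arrays correlated best with their own number. With the replicate number as a block 5 members rose and 8 fell, with Slc25a11 lost and Slc25a36 gained (limma, adjusted p = 0.052 and 0.049). Paired sign flips called 0 of 12 pairs, as 5 pairs of arrays cannot give p below 0.0625 (exact test; lowest adjusted p = 0.125). With fewer dim probe sets tested, 6 rose and 11 fell. 16 members were above the 95th percentile of the negative controls on 0 arrays, which limits what can be seen of Slc25a2, Slc25a14, Slc25a18, Slc25a21, Slc25a27, Slc25a31, Slc25a33, Slc25a34, Slc25a40, Slc25a41, Slc25a43, Slc25a47, Slc25a53, Slc25a54, Ucp1 and Ucp3.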

Other observations

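Slc25a45 varied widely among the WT arrays, at 6.57, 8.01, 6.42, 9.02 and 7.66 in replicates 1 to 5, where the mean level of the absorptive enterocyte markers was 9.87, 11.39, 10.52, 11.68 and 11.26. In the KO arrays Slc25a45 had 8.22, 8.16, 7.93, 7.59 and 8.14 and those markers 5.71, 5.89, 5.69, 5.65 and 5.47. Slc25a48 and the proliferation markers both had their 2 highest KO values in replicates 2 and 3, with 7.09, 8.52, 9.25, 6.90 and 6.85 for Slc25a48 and 8.21, 9.30, 9.94, 7.87 and 7.26 for the marker mean in KO replicates 1 to 5. In WT replicates 1 to 5 Slc25a48 had 4.14, 5.05, 5.48, 4.51 and 5.32 and the marker mean was 9.70, 9.50, 10.06, 8.35 and 9.66. Slc25a27 had its 2 lowest KO values in the same replicates, at 6.80, 5.23, 5.45, 6.34 and 6.97. With 5 arrays a group no correlation was computed.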
